A study of Mus musculus with 6 samples.

Results

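Hox genes encode homeodomain transcription factors and lie in 4 clusters, HoxA, HoxB, HoxC and HoxD, which in the mouse are on chromosomes 6, 11, 15 and 2. Genes at the anterior end of a cluster (low numbers) are switched on earlier and nearer the head of the embryo than genes at the posterior end (high numbers). Adult tissues, endothelium and lung among them, keep part of this pattern as a record of position. In vessels, single Hox factors are known for promoting or restraining endothelial migration and sprouting. Expression of the 38 Hox genes named for this description was read in lung endothelial cells that carried an L1CAM vector or an empty one. L1CAM is an adhesion molecule of the immunoglobulin superfamily. A gene was measured if at least 1 probe set carried its symbol and no other, and where there were several, the one with the strongest average signal stood for the gene. This gave 37 of the 38 members among 19938 genes tested, with 10 in HoxA and 9 each in HoxB, HoxC and HoxD. Hoxb8 had no probe set of its own.

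The cells came from mouse lung endothelium on a C57BL/6 background. Both groups were stable transfectants: 3 control arrays came from cells with the empty pcDNA3.1/Hygro(-) vector, and 3 L1CAM arrays from cells with the same vector holding the full-length mouse cDNA, which the labels spell LICAM. All cultures had grown on gelatin for 4 days to confluence in medium with 20% serum. The labels call the replicates biological and independent experiments, and tell apart 1 transfectant per group without saying whether it was a clone or a pool. Differences between the groups can therefore not be told apart from differences between these 2 transfectants. Values are log2 expression from RMA, the step that corrects background, normalizes the arrays and summarises probes. All differences are L1CAM minus control. SD is taken over 3 arrays, and SE is limma's moderated standard error of a difference. A gene was called when its limma p, adjusted by Benjamini-Hochberg over all genes tested, was below 0.05.

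The transfected gene stood on the side of its label: L1cam read 6.50, 6.77 and 7.31 in control cells and 10.49, 10.60 and 10.73 in L1CAM cells, a difference of 3.75 (SE 0.19; adjusted p = 0.000112). L1CAM replicate 1 correlated less with its group than the other arrays did with theirs (0.9948 and 0.9951, against 0.9982 to 0.9986, across genes). With control replicates 1, 2 and 3 it correlated at 0.9952, 0.9935 and 0.9938, so it was as near to control replicate 1 as to its own group. Of 15 endothelial markers all were above the array medians, and their summed log2 level was 166.7 to 167.4 in control and 166.6 to 167.6 in L1CAM arrays. Vwf (means 6.85 in control and 6.84 in L1CAM cells) and Cldn5 (7.08 and 6.86) were little above. Within that list 2 were called higher, Sox17 (1.08) and Robo4 (0.44), and 2 lower, Fli1 (-0.52) and Cldn5 (-0.22), each losing its call without control replicate 2 and, in part, without other arrays. Of 10 epithelial markers 2 were above the medians, Krt8 and Sftpb (sums 58.3 to 59.1 and 58.6 to 59.5). Of 9 haematopoietic markers 2 were above, Cd68 strongly (means 12.23 in control and 12.07 in L1CAM cells) and Cd3e narrowly (6.73 and 6.66). The sums of this list were 55.1 to 55.6 and 55.2 to 55.9, and Ptprc, the pan-leukocyte marker, was below the medians. Of 12 fibroblast and smooth muscle markers 6 were above, among them Pdgfra and Col1a1, with sums of 75.0 to 75.4 and 74.5 to 75.2. In this last list Tbx18 was the member called (-0.47, lost without control replicate 2 or 3 or L1CAM replicate 2 or 3). The part of other cell types in the Hox results was not tested. In bulk RNA, fewer cells expressing a gene and less of its RNA per cell cannot be told apart.

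Within the clusters, Hoxa2, Hoxa3, Hoxa5 and Hoxa6 fell, 3 HoxB genes rose, HoxC genes read dim throughout, and in HoxD a single gene fell. Of the 37 measured members 5 were called lower (Hoxa2, Hoxa3, Hoxa5, Hoxa6 and Hoxd10) and 3 higher (Hoxb4, Hoxb6 and Hoxb9), and 29 were not called. These 8 calls are 21.6% of the members, beside 15.0% of all genes tested. By direction the background was 8.19% called lower and 6.85% called higher. The median difference of the 37 members was 0.05, against 0.02 for all genes, with 13 members below 0 and 24 above. By cluster, HoxA had 4 of 10 lower and 0 higher, HoxB 0 of 9 lower and 3 higher, HoxC 0 of 9 in either direction, and HoxD 1 of 9 lower and 0 higher. The cluster medians were -0.22 for HoxA, 0.09 for HoxB, 0.05 for HoxC and 0.05 for HoxD.

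**Figure D1:**
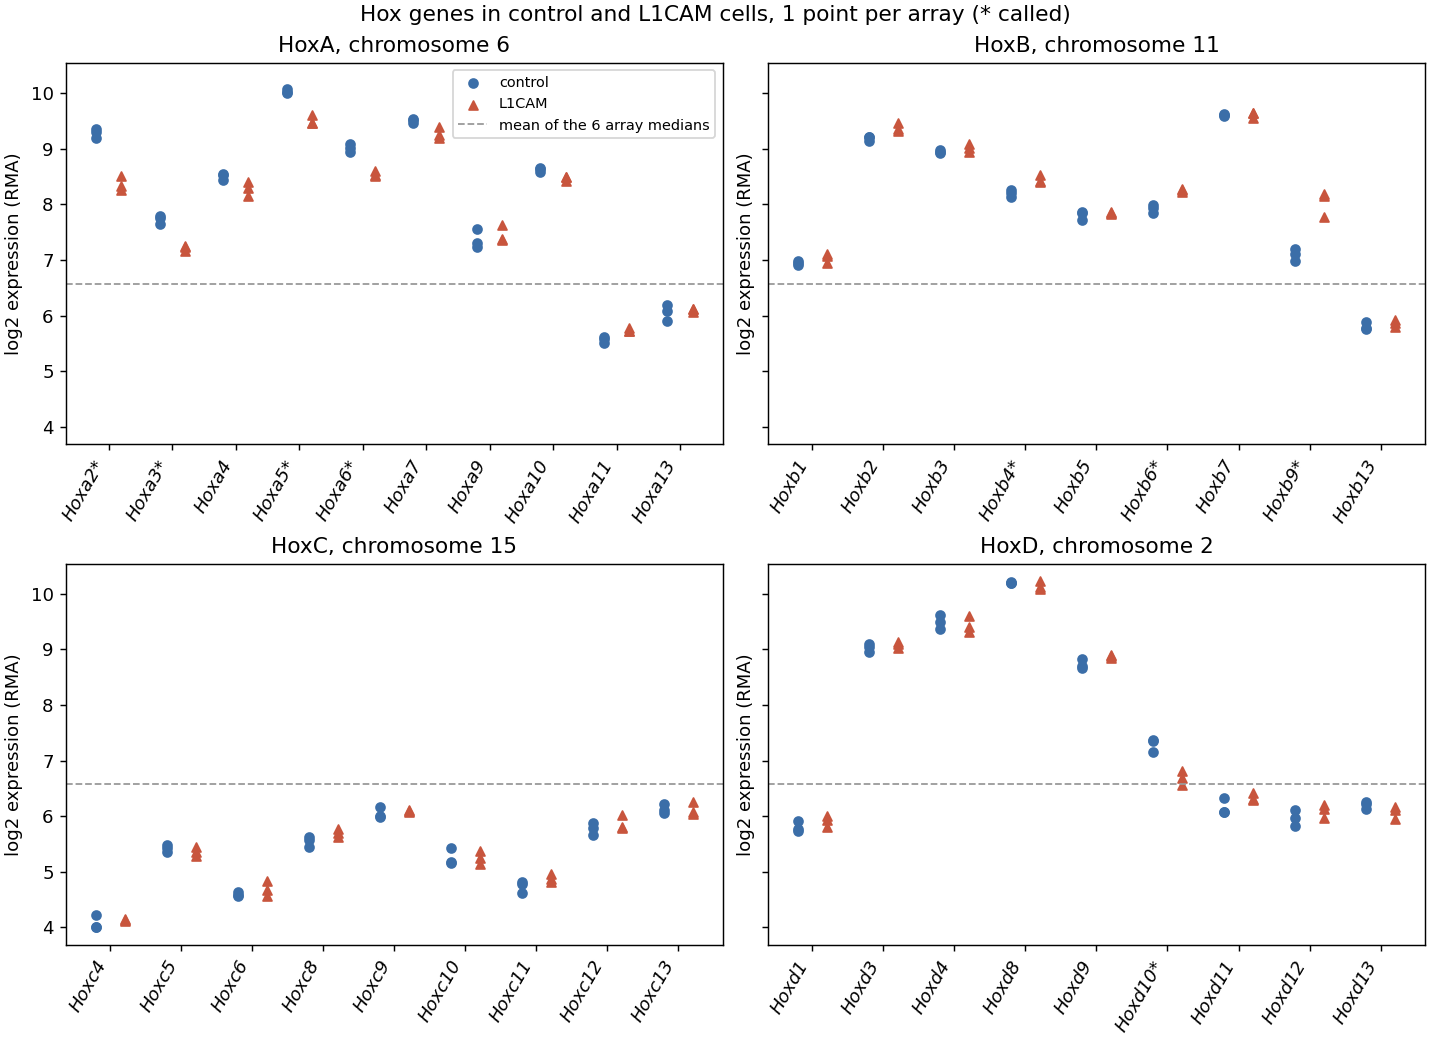
Log2 expression of the 37 measured Hox genes, 1 panel per cluster and 1 point per array (blue circles, 3 control arrays; red triangles, 3 L1CAM arrays), with the mean of the array medians as a dashed line. The L1CAM points of Hoxa2, Hoxa3, Hoxa5, Hoxa6 and Hoxd10 lie below their control points, those of Hoxb4, Hoxb6 and Hoxb9 above, and all HoxC points lie under the dashed line.

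**Figure D2:**
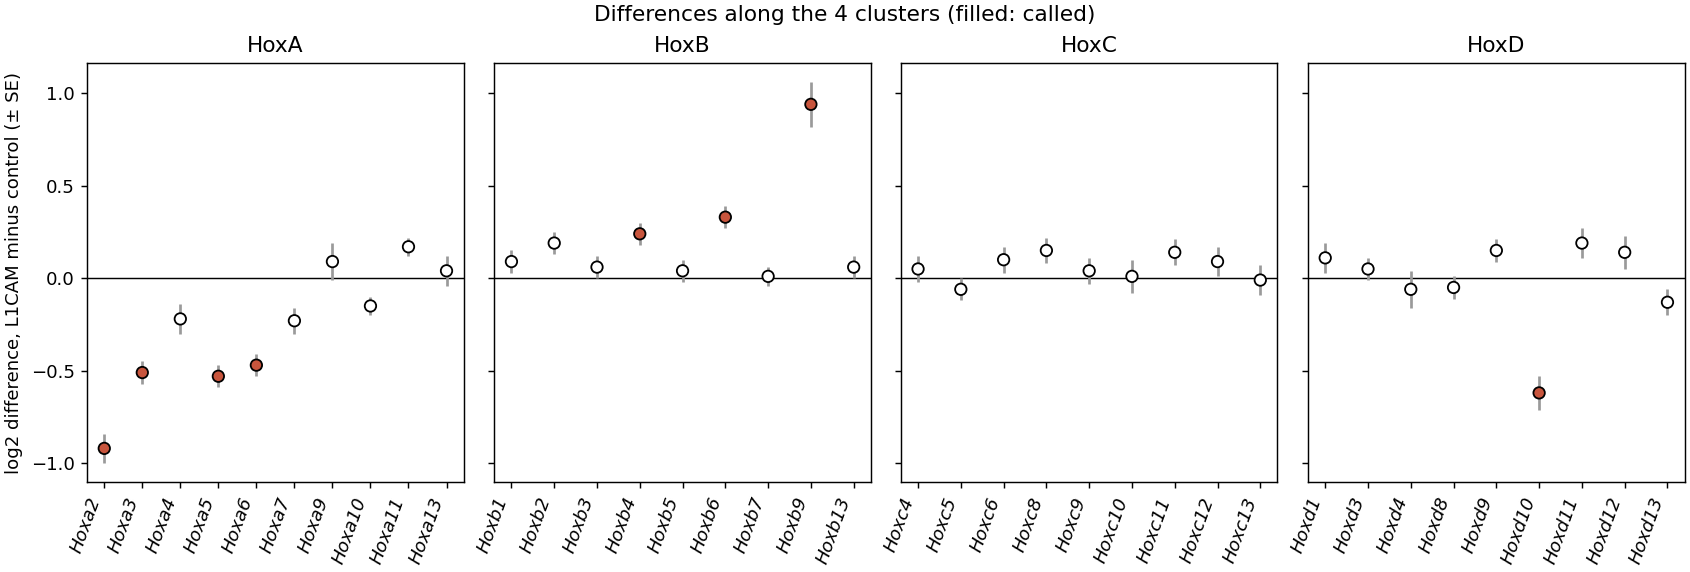
Log2 difference, L1CAM minus control, of each measured Hox gene in cluster order, with the moderated standard error as bars and called genes filled. The called falls are Hoxa2, Hoxa3, Hoxa5 and Hoxa6, with Hoxa4 between them uncalled, and Hoxd10, and the largest rise is that of Hoxb9 at 0.94.

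The RefSeq promoter table used here matched 22 of the 38 members and 6 of the 8 called ones, Hoxb6 and Hoxb9 being the others. The 250 bases before the start are shown for 5 called members, so that the 3 largest HoxA falls can be set beside a rise and beside the HoxD member. Capitals mark any match to TGATNNAT, the composite site of PBX and HOX proteins, to TGACAG, the site of MEIS proteins, or to TAATTA, a homeodomain core, on either strand. Positions are in GRCm38.p6.
Hoxa2 (lower), chr6:52164832-52165081, minus strand: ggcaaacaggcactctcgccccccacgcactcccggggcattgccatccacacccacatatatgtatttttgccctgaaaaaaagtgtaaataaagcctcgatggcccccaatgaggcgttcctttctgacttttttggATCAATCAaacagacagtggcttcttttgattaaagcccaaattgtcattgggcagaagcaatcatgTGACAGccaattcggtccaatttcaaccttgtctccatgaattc
Hoxa3 (lower), chr6:52213068-52213317, minus strand: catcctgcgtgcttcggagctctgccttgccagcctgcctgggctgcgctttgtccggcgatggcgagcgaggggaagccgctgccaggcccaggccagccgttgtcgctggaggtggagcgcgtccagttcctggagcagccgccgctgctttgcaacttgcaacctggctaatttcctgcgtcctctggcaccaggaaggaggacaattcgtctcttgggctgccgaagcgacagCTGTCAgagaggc
Hoxa5 (lower), chr6:52204588-52204837, minus strand: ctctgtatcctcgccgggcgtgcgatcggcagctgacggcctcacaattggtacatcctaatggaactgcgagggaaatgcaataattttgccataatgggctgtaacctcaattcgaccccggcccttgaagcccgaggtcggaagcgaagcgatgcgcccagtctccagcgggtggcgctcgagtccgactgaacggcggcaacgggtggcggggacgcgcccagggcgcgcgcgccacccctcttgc
Hoxd10 (lower), chr2:74691641-74691890, plus strand: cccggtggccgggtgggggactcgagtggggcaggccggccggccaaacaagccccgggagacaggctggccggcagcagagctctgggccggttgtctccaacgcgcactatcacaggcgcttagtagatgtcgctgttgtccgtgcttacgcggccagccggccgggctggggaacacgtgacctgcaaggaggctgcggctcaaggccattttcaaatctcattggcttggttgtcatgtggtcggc
Hoxb4 (higher), chr11:96318017-96318266, plus strand: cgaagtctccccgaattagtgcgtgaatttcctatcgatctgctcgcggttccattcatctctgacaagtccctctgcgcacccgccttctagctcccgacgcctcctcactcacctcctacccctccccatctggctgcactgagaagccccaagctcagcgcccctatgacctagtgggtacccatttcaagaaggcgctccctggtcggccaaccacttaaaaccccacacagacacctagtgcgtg

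Hoxa2, the member with the largest fall, had 1 match to TGATNNAT and 1 to TGACAG in this window. Hoxa3 had 1 match to TGACAG, and Hoxa5, Hoxa6, Hoxd10 and Hoxb4 had 0 matches to any of the 3 motifs. The Hoxa3 window lies upstream of the Hoxa6 window, at the far start of a Hoxa3 model that spans Hoxa4, Hoxa5 and Hoxa6. Among all 32851 RefSeq promoter windows of this length, 7.68% held TGATNNAT, 15.9% TGACAG and 4.84% TAATTA. Of 24 windows of Hox members 4, 2 and 2 held them. G and C made up 46.4% of the Hoxa2 window and 58.0% to 65.6% of the other 5 called members' windows. These are matches of letters, not measured binding.

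Hoxa2, which patterns the hindbrain and the second pharyngeal arch, showed the largest fall of the family. It read 9.30, 9.35 and 9.20 in control arrays and 8.51, 8.33 and 8.25 in L1CAM arrays. The groups were far apart, with L1CAM replicate 1 the nearest to control. The difference was -0.92 (SE 0.08), or 1.90-fold lower, with an adjusted p of 0.000732.

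Hoxa3, a patterning gene of the pharyngeal region that is known to promote endothelial migration in wound repair, fell as well. Control arrays read 7.79, 7.64 and 7.75, and L1CAM arrays 7.25, 7.23 and 7.17. No L1CAM array reached the control range, and the difference was -0.51 (SE 0.06; adjusted p = 0.00262). Hoxa5, which lung development requires and which restrains endothelial sprouting, read 10.02, 10.08 and 10.01 in control and 9.60, 9.46 and 9.47 in L1CAM cells. All 3 L1CAM values were below all control values, by -0.53 on average (SE 0.06; 1.44-fold lower; adjusted p = 0.00215). Hoxa6, its neighbour in the cluster, read 8.94, 9.09 and 9.02 against 8.60, 8.52 and 8.51, a difference of -0.47 (SE 0.06; adjusted p = 0.00348). The gap between the Hoxa6 groups was wider than the range within either. In the RefSeq table the Hoxa3 gene model spans Hoxa4, Hoxa5 and Hoxa6, so probes of these genes may read overlapping transcripts, and the 4 values are not fully independent.

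The other HoxA genes moved less or not at all. Hoxa4 differed by -0.22 (SE 0.08; adjusted p = 0.108) and Hoxa7 by -0.23 (SE 0.07; adjusted p = 0.0545). For Hoxa4 the L1CAM arrays were 8.41, 8.29 and 8.15 against 8.53, 8.43 and 8.54, and for Hoxa7 they were 9.39, 9.24 and 9.19 against 9.53, 9.51 and 9.47. Without L1CAM replicate 1 both passed, Hoxa4 with an adjusted p of 0.0193 and Hoxa7 with 0.00736. That fit called more genes in general, 4952 of all genes tested against 2999 with all arrays. Hoxa10, a gene of the posterior body axis and the uterus, differed by -0.15 (SE 0.05; adjusted p = 0.103), again with the groups apart. Hoxa9, which takes part in endothelial commitment and new vessel growth, read 7.55, 7.30 and 7.23 in control and 7.62, 7.37 and 7.36 in L1CAM cells. Its groups overlapped (0.09, SE 0.10; adjusted p = 0.632). Hoxa11 (0.17, adjusted p = 0.0779) and Hoxa13 (0.04, adjusted p = 0.787), genes of the limb and the hind end, were below the array medians in both groups.

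HoxB showed values on the other side of 0. Hoxb9, a thoracic patterning gene, had the largest rise of the family. It read 7.20, 6.99 and 7.11 in control arrays and 7.77, 8.19 and 8.15 in L1CAM arrays, a difference of 0.94 (SE 0.12), or 1.92-fold higher, with an adjusted p of 0.0029. The groups did not overlap, and L1CAM replicate 1 was again the nearest to control.

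Hoxb6, active in limb and blood cell development, read 7.98, 7.85 and 7.94 against 8.25, 8.27 and 8.23. This rise was small but even over the arrays (0.33, SE 0.06; 1.26-fold; adjusted p = 0.0094). Hoxb4, best known for expanding blood stem cells, read 8.14, 8.26 and 8.20 against 8.42, 8.52 and 8.41. Its difference of 0.24 (SE 0.06; adjusted p = 0.0347) lost the call without any 1 of the arrays other than L1CAM replicate 1, with adjusted p of 0.0772 to 0.115. Hoxb2 had separate groups too but was not called (0.19, SE 0.06; adjusted p = 0.0779). The rest were Hoxb1, Hoxb3, Hoxb5, Hoxb7 and Hoxb13, with differences of 0.01 to 0.09 and overlapping groups. Of these Hoxb3 went from 8.95 ± 0.02 to 9.01 ± 0.06 (SD, n = 3 arrays). Hoxb5, a regulator of the VEGF receptor gene Kdr in endothelial precursors, was among them, at 0.04. Hoxb7 differed by 0.01, while a probe set shared by Hoxb8 and Hoxb7 read 9.61, 9.40 and 9.35 in control and 9.75, 9.75 and 9.81 in L1CAM cells. That shared probe set was 0.32 higher, was not tested, and its part due to Hoxb8 cannot be told apart.

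In HoxD, Hoxd10 fell and no other member was called. Hoxd10, which holds endothelial cells in a quiescent state when expressed in them, read 7.36, 7.38 and 7.16 in control and 6.81, 6.56 and 6.68 in L1CAM arrays. The difference was -0.62 (SE 0.09), or 1.53-fold lower, with an adjusted p of 0.00443. The L1CAM values were near the array medians of 6.55 to 6.58, so the size of the fall is not exact there. Hoxd9 differed by 0.15 (SE 0.06; adjusted p = 0.168), with all L1CAM arrays above control. Hoxd8 (10.20 ± 0.01 and 10.15 ± 0.08, SD, n = 3 arrays; -0.05), Hoxd4 (9.50 ± 0.13 and 9.44 ± 0.15; -0.06) and Hoxd3 (0.05), the last an inducer of integrin beta 3 in endothelium, had overlapping groups. For Hoxd3 the arrays read 9.09, 8.96 and 9.05 in control and 9.14, 9.09 and 9.03 in L1CAM cells. Hoxd1, Hoxd11, Hoxd12 and Hoxd13 were below the array medians and not called.

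HoxC read dim as a whole. All 9 members were below the array medians on all 6 arrays, with values between 4.00 and 6.26. The differences ran from -0.06 to 0.15, and the lowest adjusted p was 0.212. The strongest by mean were Hoxc13 (6.13 ± 0.08 in control and 6.13 ± 0.12 in L1CAM cells), Hoxc9 (6.06 ± 0.10 and 6.10 ± 0.02) and Hoxc12 (5.78 ± 0.10 and 5.87 ± 0.13; SD, n = 3 arrays each). By the same measure 8 of 10 HoxA, 8 of 9 HoxB and 5 of 9 HoxD genes were above the array medians on at least 3 arrays, as were 57.2% of all genes tested. The dim ones outside HoxC were Hoxa11, Hoxa13, Hoxb13, Hoxd1, Hoxd11, Hoxd12 and Hoxd13, all but Hoxd1 from the posterior end of their cluster. Levels of different probe sets are not comparable in amount, so this reading gives only a side of the median. A dim probe set can also hide a change.

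Separation of the arrays was read from the same values as the calls, so it is not further evidence for them. In 8 of 37 members all L1CAM arrays lay below all control arrays, 7 of them in HoxA and Hoxd10 the other, beside 16.0% of all genes. In 6 of 37 members all L1CAM arrays lay above (Hoxa11, Hoxb2, Hoxb4, Hoxb6, Hoxb9 and Hoxd9), a share no larger than the 18.6% of all genes. Hoxa11 and Hoxd9 lie in clusters without a higher call. In the other 23 the groups overlapped.

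HoxA lies on a chromosome whose genes above the array medians tended to be lower in L1CAM cells along its whole length. Of 1099 genes tested on chromosome 6, 229 (20.8%) were called lower and 30 (2.73%) higher. The median difference of all 1099 was -0.04. That of its 565 genes above the array medians was -0.19, while that of the other 19 chromosomes was -0.08 to 0.11. Chromosomes 11, 15 and 2, which carry the other clusters, had medians of 0.04, 0.05 and 0.01. Genes above the array medians, without the Hox members, were taken in gene order. In 5 equal stretches of chromosome 6 their medians were -0.12, -0.16, -0.19, -0.19 and -0.23, with HoxA in the second. Per stretch, 34 of 112, 44 of 112, 46 of 111, 45 of 111 and 50 of 111 of these genes were called lower. In the same order 7, 4, 3, 6 and 7 were called higher. Of the 8 HoxA genes above the array medians 4 were lower and 0 higher. The shift of the chromosome's median was of like size on each L1CAM array, at -0.20, -0.17 and -0.17 in replicates 1, 2 and 3.

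The 4 called HoxA genes differed by more than this chromosome-wide value. They were picked by their calls in the same data, which favours large differences. Hoxa2 was the 23rd lowest of the 565 genes, Hoxa5 the 73rd, Hoxa3 the 85th and Hoxa6 the 98th. Hoxa7 (238th), Hoxa4 (254th) and Hoxa10 (318th) lay in the middle of the chromosome's range, and Hoxa9 (498th) toward its upper end. Each chromosome's median deviation was then set to 0 on each array, over genes above the array medians, a step chosen after seeing the data. Hoxa2 then differed by -0.75 (adjusted p = 0.00225), Hoxa5 by -0.35 (0.00912), Hoxa3 by -0.33 (0.00947) and Hoxa6 by -0.30 (adjusted p = 0.0158). With the chromosome's median level set to 0 instead, also chosen after seeing the data, the 4 differed by -0.67, -0.27, -0.26 and -0.22, with adjusted p of 0.00273 to 0.0412. That median-level fit also called Hoxa9 and Hoxd9 higher. With the median deviation set to 0, Hoxa4 (-0.04), Hoxa7 (-0.06) and Hoxa10 (0.02) were near 0, and Hoxa9 read 0.27 (adjusted p = 0.109). In this median-deviation fit 4 of 8 HoxA genes were lower, 3 of 8 HoxB genes higher and 1 of 5 HoxD genes lower. The shares among the 11409 genes tested in it were 14.7% lower and 12.3% higher. A test of HoxA against the other clusters was not made. What lowers the chromosome, and its part in the fall of the HoxA genes, was not tested.

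**Figure D3:**
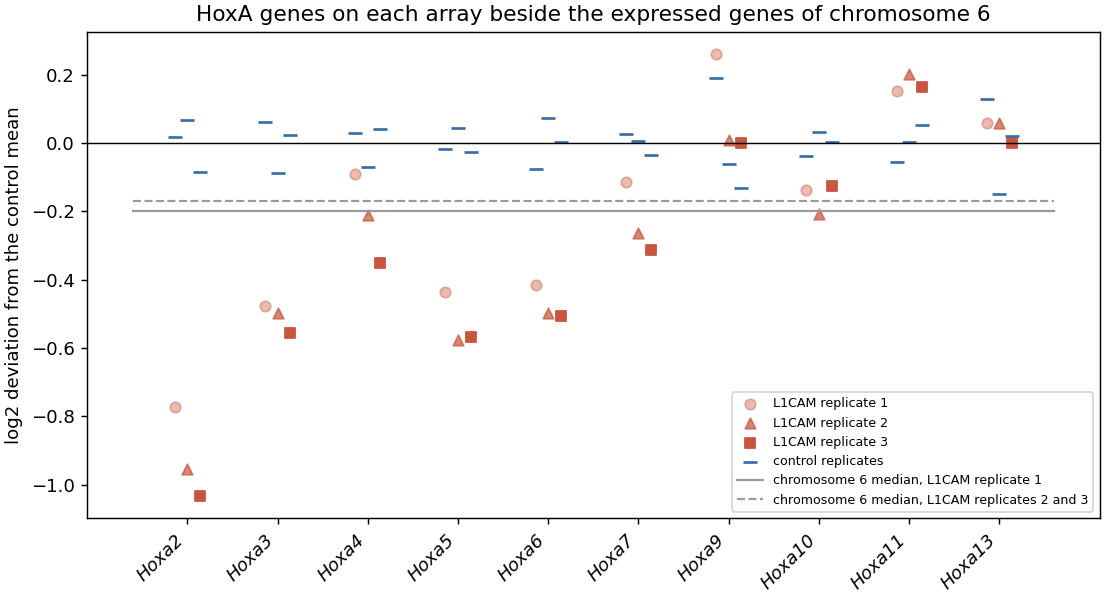
Log2 deviation of each HoxA gene from its control mean on each array (red symbols, L1CAM replicates 1 to 3; blue dashes, control arrays), with grey lines at the median deviation of the chromosome 6 genes above the array medians on each L1CAM array (-0.20, -0.17 and -0.17). All L1CAM points of Hoxa2, Hoxa3, Hoxa5 and Hoxa6 lie below the lines, while those of Hoxa9, Hoxa11 and Hoxa13 lie above them.

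L1CAM replicate 1 was nearer to control than the other L1CAM arrays for most called members. Hoxa2 deviated from its control mean by -0.78 in replicate 1 and by -0.96 and -1.03 in replicates 2 and 3. Hoxb9 deviated by 0.67, 1.09 and 1.05, and Hoxd10 by -0.50, -0.74 and -0.62. Hoxb6, at 0.33, 0.35 and 0.31, and Hoxb4, at 0.21, 0.32 and 0.20, did not follow this pattern, nor did the chromosome 6 median. The called members other than Hoxb4 stayed called in all 6 fits that each left out 1 array.

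**Figure D4:**
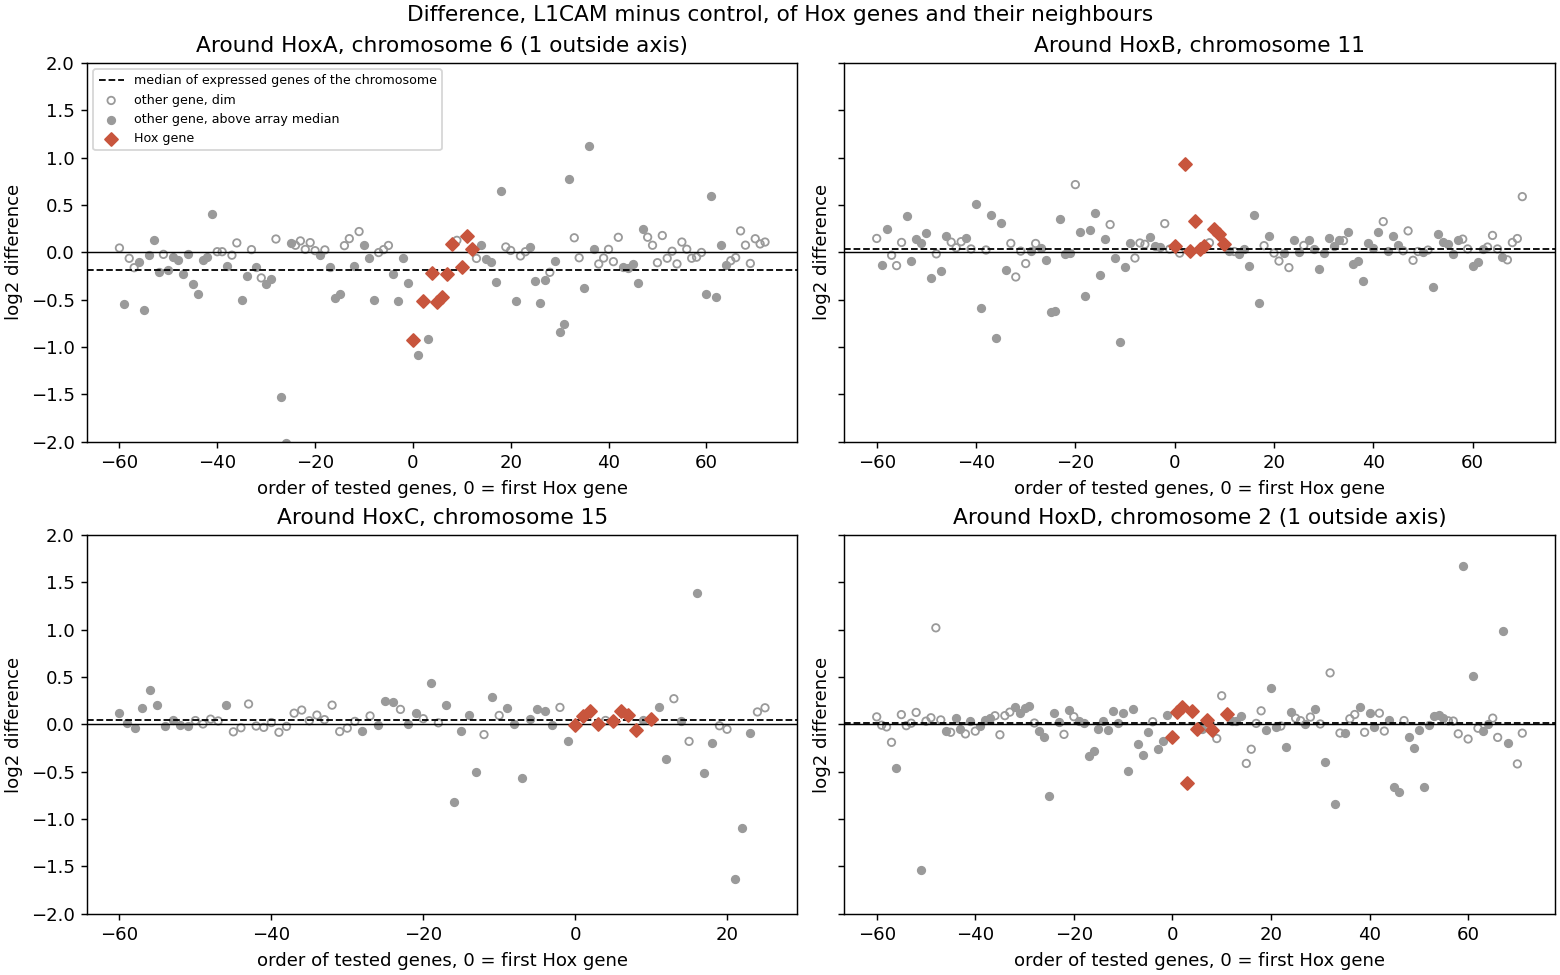
Log2 difference, L1CAM minus control, of Hox genes (red diamonds) and of up to 60 tested genes on each side (filled grey, above the array medians; open grey, dim), in gene order around each cluster. The dashed line is the chromosome's median over genes above the array medians, at -0.19 for chromosome 6 and 0.01 to 0.05 for the others, and 1 gene each around HoxA and HoxD lies outside the axis.

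Hoxaas2, an antisense RNA between Hoxa2 and Hoxa3, fell by 1.09 (SE 0.14), from 8.46 ± 0.04 to 7.37 ± 0.32 (SD, n = 3 arrays; adjusted p = 0.00366), and was called whichever array was left out. Its model overlaps the end of the Hoxa3 model in the RefSeq table, and whether the probe sets tell strands apart is not given in the sources used here. 5730596B20Rik, a noncoding gene within the Hoxa3 model and named after its value was seen, differed by -0.92 (SE 0.22; adjusted p = 0.0289). Its values in L1CAM replicates 2 and 3, 6.09 and 6.25, were below the array medians. It kept its call in 1 of 6 fits that left out an array, the one without L1CAM replicate 1, with adjusted p of up to 0.104. In the list of cluster noncoding RNAs 9 of 16 were measured, 1 was lower and 0 were higher. The microRNA genes Mir10b (-0.15, adjusted p = 0.213) and Mir196b (0.13, adjusted p = 0.411) were dim. Within HoxD, Haglr, the antisense RNA next to Hoxd1, was dim and 0.30 higher (adjusted p = 0.0307). It was also named after its value was seen, and it lost the call without control replicate 1 or 3 or L1CAM replicate 2 or 3.

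The flanks of the clusters were read as the 10 nearest tested genes on each side. Around HoxA 5 of 20 were lower and 1 higher, with a median of -0.06, on a chromosome with 20.8% lower and 2.73% higher. Over all genes the shares were 8.19% and 6.85%. Skap2, an adaptor protein next to the anterior end, differed by -0.32 (adjusted p = 0.0104), Cbx3, a heterochromatin protein, by -0.52 (adjusted p = 0.00797), and Hnrnpa2b1 by -0.22. 4921507P07Rik (-0.50) and Chn2 (-0.51) were also lower. The L1CAM values of 4921507P07Rik, 6.39, 6.32 and 6.41, were below the array medians. Creb5, a transcription factor beyond the posterior end, rose by 0.65 (SE 0.06; adjusted p = 0.000872). Around HoxB 1 of 20 was higher (Nfe2l1, 0.40) and 0 were lower, with a median of 0.05. Around HoxC 3 were lower (Zfp385a, -0.51; Cbx5, -0.36; Map3k12, -0.57) and 2 higher (Gpr84, 1.39; Nfe2, 0.27), of which Nfe2 was dim. Around HoxD Gpr155 was lower (-0.49) and Osbpl6 higher (0.38). Of these 14 called neighbours Cbx3, Creb5, Nfe2l1 and Zfp385a stayed called in all 6 of these fits. The other 10 lost theirs in at least 1 such fit, with adjusted p reaching 0.0536 to 0.155, each of them without L1CAM replicate 2 or without control replicate 2.

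Partners, regulators, relatives and described targets of Hox genes were read from gene lists by function, as were the cluster noncoding RNAs above. Together 101 genes of these lists were measured and 18 (17.8%) were called, close to the 15.0% of all genes. Of 10 measured TALE homeodomain proteins, the DNA-binding partners of HOX proteins, 3 were lower and 0 higher, with a median of -0.18. Meis2 fell from 11.44 ± 0.12 to 10.92 ± 0.12 (SD, n = 3 arrays; -0.52, SE 0.09; adjusted p = 0.00803). Pbx2 differed by -0.57 (adjusted p = 0.0191) and Meis3 by -0.45 (adjusted p = 0.0153). Of 26 measured Polycomb subunits, which keep Hox genes silent, 4 were lower and 1 higher, with a median of -0.08. Phf19 differed by -1.03 (SE 0.20; adjusted p = 0.0157), Ezh2, the H3K27 methyltransferase, by -0.61 (adjusted p = 0.032), Pcgf2 by -0.30 and Phc1 by -0.29. Pcgf5 differed by 0.88 (adjusted p = 0.00975). Ezh2 and Phc1 lie on chromosome 6 themselves.

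Of 13 measured genes in the list of trithorax and H3K27 demethylase genes, which oppose Polycomb, 1 was lower (Dpy30, -0.27) and 1 higher (Dot1l, 0.33). Dot1l and Ctcf were in this list but are of neither kind. In the list of retinoic acid, CDX and other upstream regulators 18 were measured, 2 higher and 1 lower. Rarg, a retinoic acid receptor, rose from 9.54 ± 0.03 to 9.98 ± 0.08 (SD, n = 3 arrays; 0.44, SE 0.06; adjusted p = 0.00452). Cyp26b1, which degrades retinoic acid, was 0.30 higher (adjusted p = 0.024), and Gdf11, a signal for posterior Hox genes, differed by -0.66 (adjusted p = 0.0178). Among 10 even-skipped and ParaHox relatives 0 were called in either direction, with Evx2 at 0.10 (adjusted p = 0.268) and Gsx2 at 0.10 (adjusted p = 0.369). Among 15 measured genes described as HOX targets in endothelium 2 were higher and 2 lower. Mmp14, a membrane protease described as a target of HOXA3, fell from 11.32 ± 0.04 to 10.81 ± 0.07 (SD, n = 3 arrays; -0.52, SE 0.06; adjusted p = 0.002). Plau, a target described for HOXD3, differed by -0.22 (adjusted p = 0.0347), Nos3, the endothelial nitric oxide synthase, by 0.25 (adjusted p = 0.0442) and Hmox1 by 0.54 (adjusted p = 0.00929).

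Of the 18 called list genes Hoxaas2, Meis2, Mmp14 and Rarg stayed called in all 6 of these fits. The other 14 lost theirs in at least 1 such fit, with adjusted p reaching 0.0508 to 0.153. Leaving out control replicate 2 or control replicate 3 ended 13 of these calls each, L1CAM replicate 3 ended 12, L1CAM replicate 2 ended 11, control replicate 1 ended 8 and L1CAM replicate 1 ended 0. The calls over all genes moved likewise. From 2999 they fell to 1033 without control replicate 2, 1064 without control replicate 3 and 1238 without L1CAM replicate 3. They rose to 4952 without L1CAM replicate 1.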

How the data were processed

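RNA from 6 cultures was hybridised to 6 Affymetrix mouse gene arrays, 3 per group. The authors deposited log2 values; RMA and Affymetrix Expression Console 1.1 are the tools named per the submitters' processing notes, and the genome build was not given in the sources used here. The arrays held 35512 probe sets. The platform annotation gives 1 symbol for 21789, which were used, several for 1621 and no entry for 12102. For 999 genes with several probe sets the strongest on average was taken. No further normalization was applied. The groups were compared with limma 3.58.1 in R 4.3.3 (lmFit and eBayes, no covariates), with Benjamini-Hochberg adjustment over 19938 genes, and the code was tested on simulated data. Each p-value reflects variation among repeat cultures of 2 transfectants only. The number of arrays limits the precision. A gene was dim if above the array median on fewer than 3 arrays.

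The members and gene lists were chosen with earlier results of these data known. Values are given in full for called members and for separate groups differing by at least 0.5, for up to 4 called genes per direction in each list other than the marker lists (otherwise the 2 with the smallest p), and for called genes among the 10 nearest tested genes on each side. Same-numbered replicates did not deviate together (r = -0.17, -0.20 and -0.05), so they were not paired. Alternatives covered normalization, filtering, probe set choice, the variance model, a replicate block, leaving out each array and, chosen after seeing the data, setting each chromosome's median to 0. Promoter sequences came from RefSeq, GRCm38.p6.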

Additional observations from a re-analysis of the deposited data

How the results depend on the processing

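Of the differences of the 8 called members under the alternatives run, 119 kept their direction and call and 9 kept their direction but lost the call, and 0 reversed. Of the 9, 7 were Hoxb4. An ordinary linear model without moderation, which uses each gene's own spread alone, lost Hoxb4 (limma's adjusted p replaced by 0.0905), Hoxb9 (0.0628) and Hoxd10 (0.0636), left 1 Hox gene higher and called 581 genes in all. Array weights called 5191 genes, with Hoxa4 and Hoxa7 added as lower and Hoxa11 as higher. The filter on dim probe sets called 3421 genes, with Hoxa7 added as lower and Hoxb2 as higher. Leaving out 1 array gave 1033 to 4952 called genes, against 2999 in the main fit. With the replicate block 2067 genes were called, the 5 lower Hox genes and the 4 of HoxA held by count, and 2 were higher, since Hoxb4 lost its call (adjusted p = 0.0569). Setting the median level of each chromosome to 0, chosen after seeing the data, gave 5 higher Hox genes, Hoxa9 and Hoxd9 added. Counts in the lists and flanks were less stable: 108 stayed within 1.5 times, 47 fell below that and 21 rose above it. Signals near the array medians limit the HoxC and posterior members, where a change may be compressed.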
